A study of Mus musculus with 14 samples.

Results

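The collagen genes of 2 organs were followed in transgenic mice kept on normal or on high salt food. Every gene whose symbol has the form Col, type number, a, chain number was taken from the deposited count tables of liver and kidney. This gave 39 genes: 35 of the 19660 genes in the liver table and 36 of the 20203 genes in the kidney table, 32 of them in both. Col6a4, Col11a1, Col19a1 and Col26a1 were listed for kidney only, and Col9a3, Col11a2 and Col17a1 for liver only. By type, 10 were fibrillar chains, 6 were the type IV chains of basement membranes and 23 were placed in a class of all other collagens.

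All 14 RNA samples came from adult male mice aged 12 weeks that carried the human angiotensinogen transgene of the -6A haplotype, labelled Hap -6A. The labels gave 4 groups: liver on the normal diet (4 libraries), liver on high salt (4 libraries), kidney on the normal diet (3 libraries) and kidney on high salt (3 libraries). The transgene was carried by the mice of both diets, and mice without it are not part of these groups. The labels name neither the length of the salt treatment nor which samples share an animal, so p-values measure the spread between these samples.

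Collagens are secreted or membrane-bound proteins in which chains wind into a triple helix. Fibrillar types I, III and V form the banded fibres that accumulate in scarred liver and kidney, and type IV forms the network of basement membranes. Among the remaining types some decorate fibres, build beaded filaments, anchoring fibrils or short-chain networks, or span the cell membrane. Col15a1 and Col18a1, which lie in or beneath basement membranes, are also counted here among the other collagens. In the adult kidney the Col4a3, Col4a4 and Col4a5 chains join in the filter membrane of the glomerulus, whereas liver sinusoids lack a continuous basement membrane and hepatic stellate cells are the known source of fibrillar collagen there.

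Liver libraries held 37267778 to 51487382 gene counts and kidney libraries 16046094 to 22004927. The labelled tissues carried their markers: the summed level of 4 hepatocyte genes in CPM (counts per 1000000 counts of the scaled library) was 42700 to 100000 in liver and had a median of 71.6 (normal diet) and 83.0 CPM (high salt) in kidney, and the summed level of the kidney tubule genes was 2880 to 4670 CPM in kidney and 0.547 to 8.36 CPM in liver, where high salt libraries 7 (8.36 CPM) and 8 (4.61 CPM) were the highest. Some libraries stood apart. Mitochondrial genes took 2.30% and 2.06% of the counts in normal diet liver libraries 1 and 2, against 11.3% to 29.6% in the other 6 liver libraries. High salt liver libraries 5 and 6, named after their columns because the labels do not tie these columns to a numbered sample, differed by 6.87 chi-square units per degree of freedom over 12184 genes, against 110 to 1480 in all other same-diet liver pairs. That is above sampling noise, but it does not show whether the 2 libraries come from separate animals, which the labels do not say. They were kept as 2 libraries, and their sum was used as an alternative. Among normal diet liver pairs, libraries 1 and 2 differed by 110 of these units and all other pairs by 546 to 1480. In these bulk samples fewer cells of a type and less RNA per cell cannot be told apart.

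Liver and kidney differed in which collagens made up their collagen RNA. To compare genes, CPM was divided by the kilobases (kb) of exon of each gene, and the shares below are shares of the summed CPM per kb of all listed collagens. In liver a single gene dominated: Col18a1, whose protein is a basement membrane proteoglycan and the source of the fragment endostatin, made up 71.1% to 81.9% of the sum in the 8 libraries. Its level was 40.8 ± 16.9 CPM per kb in normal diet mice, against 55.95 ± 7.68 CPM per kb with high salt (SD, n = 4 per group). The liver collagen with the next highest level was Col14a1, a fibril-associated collagen, at 2.28 ± 0.58 and 4.36 ± 0.722 CPM per kb on the same diets. Type IV chains made up only 2.54% to 7.08% of the liver sum and fibrillar chains 7.38% to 14.5%.

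In kidney the type IV chains led. They made up 54.0% to 69.0% of the summed level in the 6 libraries and fibrillar chains 9.94% to 20.2%. Col4a3 was the highest collagen in 5 kidney libraries and Col4a1 in high salt kidney library 3. Kidney Col18a1 was 4.22 ± 1.93 CPM per kb in normal diet mice, against 3.96 ± 0.944 with high salt (SD, n = 3 per group). With the length of the longest transcript in place of all exon bases, the 3 highest genes of each class were the same in 5 of the 6 combinations of class and tissue; among kidney fibrillar chains Col5a2 then took the place of Col1a1. 

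**Figure D1:**
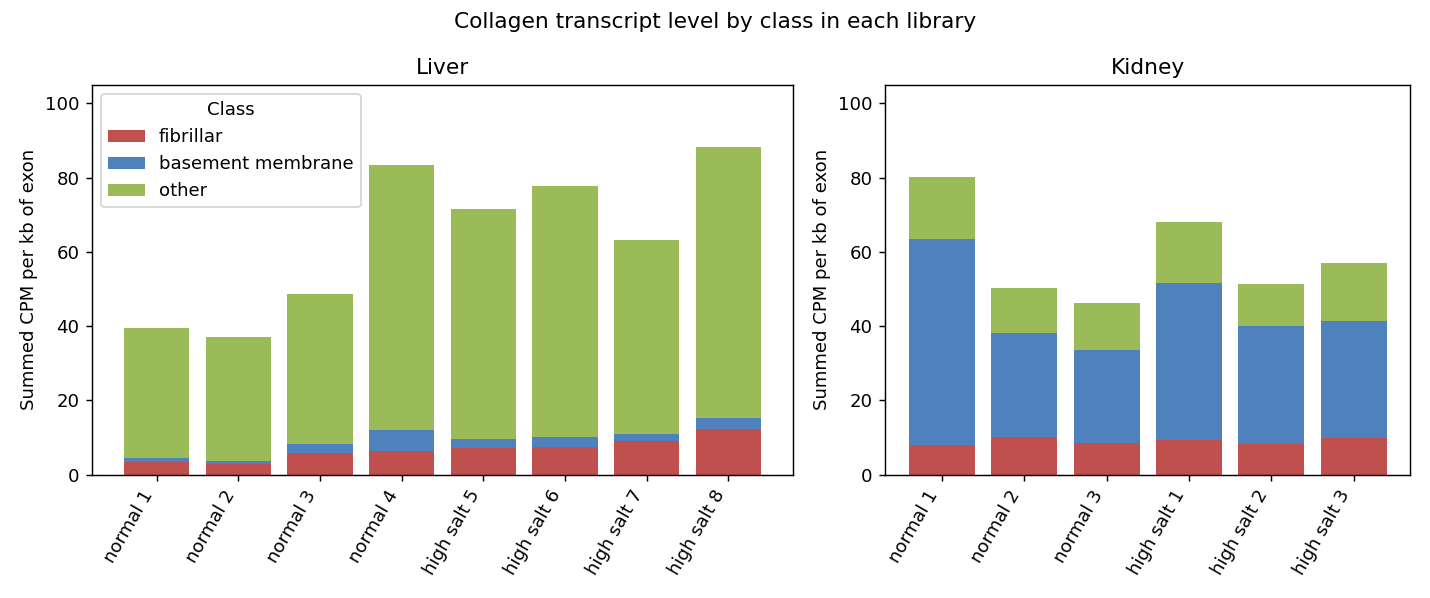
Summed collagen level (CPM per kb of exon, vertical axis) in each library (horizontal axis), split into fibrillar, basement membrane and other types, for liver and kidney. The other class, led by Col18a1, fills most of every liver bar, and the basement membrane class fills 54.0% to 69.0% of every kidney bar.

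The tissue comparison asked which collagen genes differed between liver and kidney, on each diet apart, and was fitted with edgeR's quasi-likelihood test and Benjamini-Hochberg adjustment over 16633 genes present in both tables; a gene was called at an adjusted p under 0.05. On the normal diet 65.1% of all genes were called, 32.9% with more in liver and 32.2% with more in kidney. Of 30 collagens tested, 21 were called, 5 with more in liver and 16 with more in kidney. On high salt 62.7% of all genes were called, 32.7% and 30.0% in the same order, and 18 collagens were called, 5 with more in liver and 13 with more in kidney. The median log2 difference, liver minus kidney, was -1.20 over the collagens and 0.02 over all genes on the normal diet, and -0.76 and 0.05 on high salt. The tissues were deposited as separate tables of different depth, so tissue and any difference in handling cannot be told apart.

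All 6 type IV chains were lower in liver on both diets. The largest differences lay in the chains of the glomerular filter. Col4a4 was called at a log2 difference of -9.08 ± 0.55 (standard error) with normal food and -6.91 ± 0.47 with high salt, with adjusted p of 2.03e-09 and 8.00e-09 by edgeR. The corresponding values were -7.04 ± 0.46 and -6.82 ± 0.45 for Col4a3, and -5.10 ± 0.26 and -5.00 ± 0.26 for Col4a5. Liver held 1 to 36 counts of Col4a4 and 11 to 39 of Col4a3 per library, while kidney held 1123 to 2965 and 1082 to 3286. The widely expressed chains differed less: Col4a1 by -1.99 ± 0.57 and -2.33 ± 0.57, and Col4a2 by -1.78 ± 0.46 and -1.87 ± 0.46. Col4a6 was low in both organs, with at most 7 counts per liver library and 14 per kidney library, and differed by -2.71 ± 0.67 and -2.10 ± 0.54.

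Fibrillar and other chains split by gene. Only Col5a3, Col18a1 and Col25a1 were called with more in liver on both diets. Col5a3, a minor chain of type V collagen, differed by 5.17 ± 0.73 and 6.04 ± 0.74 on the log2 scale, with 121 to 1497 counts per liver library and 5 to 9 per kidney library. Col18a1 differed by 3.80 ± 0.37 and 4.37 ± 0.38. Col25a1, a membrane-spanning collagen, differed by 2.66 ± 0.69 and 1.52 ± 0.57 on 5 to 31 liver counts and 1 to 8 kidney counts; on high salt its call held in only 5 of 12 alternatives, and it was lost on leaving out liver library 5, 6 or 8 (1.45, 1.36 and 1.48) or kidney library 1 or 2 (1.47 and 1.28), with libraries 5 and 6 summed (1.44) and by DESeq2 (1.40). 

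Of the 12 collagens called with more in kidney on both diets, 6 were not type IV. Col8a1, a short-chain network collagen, had 8, 4, 5 and 4 counts in normal diet liver libraries 1 to 4, 23, 20, 8 and 34 in high salt liver libraries 5 to 8, and 53 to 94 in the kidney libraries. It differed by -4.35 ± 0.44 and -2.44 ± 0.39, and Col23a1, another membrane-spanning collagen with 2 to 18 liver and 26 to 53 kidney counts, by -3.48 ± 0.49 and -2.56 ± 0.45. Type I collagen was also higher in kidney: Col1a2 differed by -2.12 ± 0.25 and -1.37 ± 0.24, and Col1a1 by -2.33 ± 0.43 and -1.10 ± 0.41. On high salt the Col1a1 call was lost without liver library 5, 6 or 7 or kidney library 1 or 3, with differences as small as -0.857 and edgeR adjusted p as high as 0.131 (without kidney library 3), and with liver libraries 5 and 6 summed (-0.983). The remaining 2 were the fibril-associated Col12a1 (-1.72 ± 0.26 and -1.47 ± 0.25) and the beaded filament chain Col6a6 (-1.73 ± 0.66 and -2.23 ± 0.63), whose normal diet value was -0.47 without kidney library 1 and was not called without liver library 1, 2 or 3 either (-1.70, -1.41 and -1.70), nor without libraries 1 and 2 together (-1.24). Col27a1, a fibrillar chain best known from cartilage, was called with more in liver on high salt, at 2.63 ± 0.47, and stood at 0.41 ± 0.43 on the normal diet, or 1.09 (called) without normal diet liver libraries 1 and 2.

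**Figure D2:**
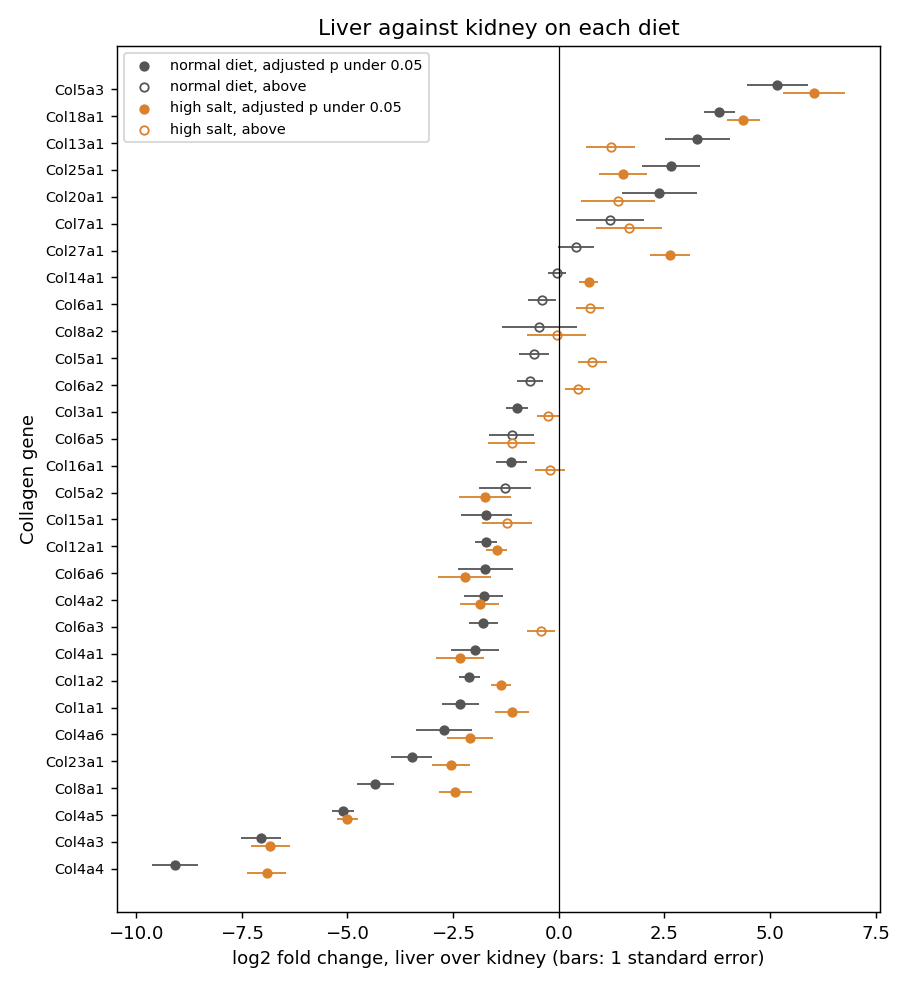
Log2 fold change of liver over kidney (horizontal axis; bars are 1 standard error) for each of the 30 collagen genes tested, with the diets as separate points. The type IV chains Col4a3, Col4a4 and Col4a5 lie farthest to the left, at -9.08 to -5.00, and Col5a3 farthest to the right, at 5.17 and 6.04.

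Promoter windows of 32 of the 39 genes were matched by symbol in RefSeq (GRCm38.p6). The 250 bases before the start held GGGCGG, the core of a GC box, on either strand in 62.5% of the collagen windows and in 32.7% of all 32851 windows. CCAAT was found on either strand in 37.5% and 33.8%, and TATAAA in 12.5% and 12.4%. Each collagen gave 1 window, whereas all windows were counted without keeping 1 per gene. Some collagen windows overlap annotated exons, over all 250 bases for Col4a1, Col4a2, Col6a4 and Col20a1. The stretches before Col5a3, which had the largest difference in favour of liver, and before Col3a1, the highest fibrillar chain of kidney, are shown 5′ to 3′ on the strand of the gene, with matches to these motifs on either strand in capitals. Both end at the base before the annotated start.
Col5a3, 150 bases, chr9:20815068-20815217, minus strand: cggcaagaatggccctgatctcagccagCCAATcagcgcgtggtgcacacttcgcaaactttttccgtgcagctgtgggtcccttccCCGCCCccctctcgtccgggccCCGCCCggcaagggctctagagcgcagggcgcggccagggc
Col3a1, 150 bases, chr1:45311388-45311537, plus strand: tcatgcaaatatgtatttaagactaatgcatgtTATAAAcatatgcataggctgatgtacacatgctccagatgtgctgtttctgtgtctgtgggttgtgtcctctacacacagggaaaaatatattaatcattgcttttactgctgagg
The Col5a3 stretch held 1 CCAAT and 2 GGGCGG matches, the latter on the opposite strand, and the Col3a1 stretch held 1 TATAAA match, 117 bases before the start. A match describes the letters and not a site in use.

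The type IV genes lie in head-to-head pairs. Col4a3 (chr1:82586921-82722059, plus strand) and Col4a4 (chr1:82448423-82586849, minus strand) are separated by 71 bases in GENCODE M21 (GRCm38) and had the largest differences in favour of kidney. The whole stretch between them is shown because it lies before both genes. It is read 5′ to 3′ on the minus strand, the strand of Col4a4, and holds no match to the 3 motifs above.
Col4a4 to Col4a3 interval, chr1:82586850-82586920: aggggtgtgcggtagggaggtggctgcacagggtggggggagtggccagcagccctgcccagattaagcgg
The first exons of Col4a1 (chr8:11198423-11312826, minus strand) and Col4a2 (chr8:11312805-11449287, plus strand) overlap by 22 bases, and Col4a5 and Col4a6 on chromosome X are separated by 1308 bases. Whether the counting used strand is not given in the sources used here, so reads in the Col4a1 and Col4a2 overlap cannot be assigned with certainty. The same holds for exons that Col4a2, Col4a3, Col5a1, Col6a4, Col6a6, Col9a3 and Col15a1 share with a gene on the other strand.

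In kidney the paired chains kept nearly the same proportion in every library although their level varied. Col4a3 was 164, 63.4 and 61.3 CPM in normal diet kidney libraries 1, 2 and 3 and 111, 83.8 and 73.5 CPM in high salt libraries 1, 2 and 3. Col4a4 was 148, 65.8 and 55.4 CPM and 99.5, 75.8 and 69.0 CPM in the same order. Normal diet library 1 was the highest for both genes, and the other 2 normal diet libraries were the lowest. The ratio of Col4a3 to Col4a4 per kb ran from 1.03 to 1.19 over the 6 libraries. 

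The same held for Col4a1 and Col4a2. Col4a1 was 98.7, 47.3 and 41.2 CPM on the normal diet and 81.3, 53.3 and 68.6 CPM on high salt. Col4a2 was 53.3, 20.9 and 18.8 CPM and 43.7, 23.6 and 32.8 CPM, and the per-kb ratio of Col4a1 to Col4a2 ran from 1.64 to 2.01. In liver, where Col4a1 was 2.92 to 28.4 CPM, that ratio ran from 0.904 to 2.04.

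Col4a5 went the other way among kidney libraries. It was 24.9, 38.9 and 35.0 CPM on the normal diet and 27.4, 36.7 and 22.7 CPM on high salt, so normal diet library 1, the highest for its partners Col4a3 and Col4a4, was the second lowest here. The per-kb ratio of Col4a5 to Col4a4 ran from 0.266 in that library to 0.997 in normal diet library 3. Col4a6 was 0.25, 0.41 and 0.532 CPM on the normal diet and 0.625, 0.882 and 0.545 CPM on high salt. Its diets did not overlap, with 5 to 11 counts per library against 12 to 14.

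Normal diet kidney library 1 thus set much of the kidney spread. Over the 19 kidney collagens with a mean of at least 50 counts, the SD of the log2 ratio between libraries was 0.763 and 0.725 for library 1 against its 2 partners and 0.240 between those partners. In library 1 the summed podocyte markers were 113 CPM, against 141 to 174 CPM in the other kidney libraries, the summed endothelial markers were 118 CPM against 168 to 185 CPM, and the summed tubule markers 4670 CPM against 2880 to 3840 CPM. Their part in the type IV values was not tested.

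**Figure D3:**
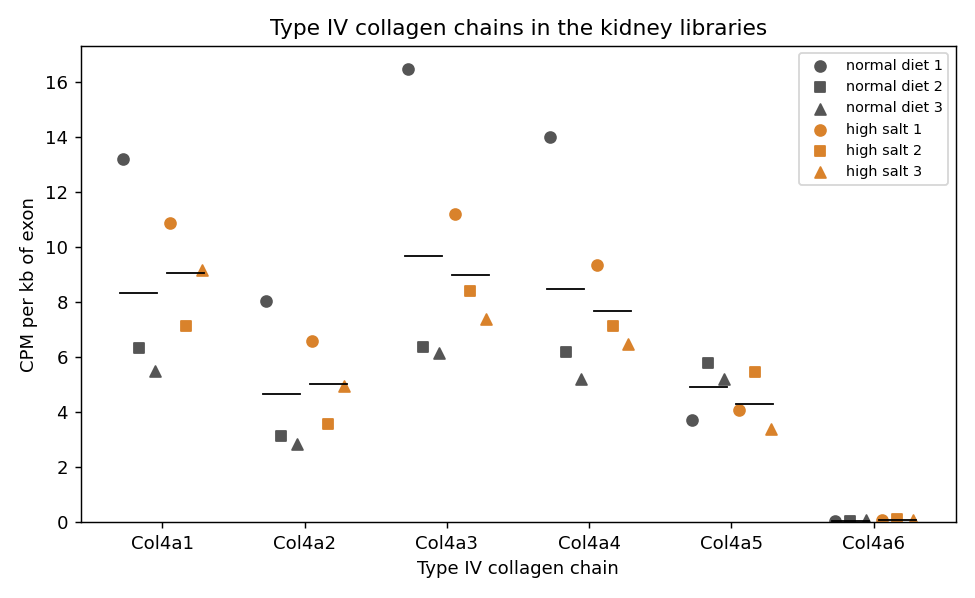
Level of the 6 type IV chains (CPM per kb of exon, vertical axis) in the kidney libraries; each point is a library, with its number shown by the marker shape, and the lines are diet means. Normal diet library 1 is the highest for Col4a1 to Col4a4 and the second lowest for Col4a5.

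The diet comparison in kidney found no collagen gene that differed. Of the 36 listed collagens 25 passed the filter on low counts. The other 11 (Col5a3, Col6a4, Col6a5, Col7a1, Col8a2, Col11a1, Col13a1, Col20a1, Col24a1, Col25a1 and Col28a1) had at most 14 counts in any library. By edgeR's quasi-likelihood test 0 of 15847 kidney genes passed the adjusted threshold (0% called), 318 (2.01%) had an unadjusted p under 0.05, and DESeq2 called 11 genes. Of the 25 collagens 0 had an unadjusted p under 0.05. The median log2 difference, high salt minus normal diet, was -0.06 over the collagens and -0.02 over all genes. Kidney collagens had a positive difference in 11 cases and a negative one in 14. Every high salt library lay above every normal diet library in 1 tested collagen, Col4a6, beside 3.85% of all genes, and below in 0, beside 3.07%.

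The smallest unadjusted p-values among kidney collagens belonged to type I collagen. Col1a2 was 24.5, 22.8 and 19.95 CPM on the normal diet and 31.04, 21.7 and 34.6 CPM on high salt, a log2 difference of 0.38 ± 0.22 (edgeR adjusted p = 0.9996, as for every kidney collagen). Col1a1 was 7.84, 5.33 and 6.15 CPM and 10.1, 5.61 and 11.9 CPM, a difference of 0.52 ± 0.31. High salt library 2 lay among the normal diet libraries for both genes. Col27a1 was 14.2, 9.31 and 10.7 CPM and 10.3, 7.69 and 8.37 CPM, a difference of -0.38 ± 0.24. Col5a2 was 9.04, 12.5 and 14.1 CPM and 6.79, 10.1 and 10.5 CPM, a difference of -0.39 ± 0.26. Both were lower on average with high salt, and in both the diets overlapped. Col4a6 differed by 0.76 ± 0.48.

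The kidney diets also overlapped for the most abundant chains. Col3a1 was 21.7, 48.2 and 32.8 CPM on the normal diet and 31.6, 35.1 and 31.5 CPM on high salt, a difference of -0.06 ± 0.28. The 4 abundant type IV chains Col4a1, Col4a2, Col4a3 and Col4a4 differed by 0.12 ± 0.35, 0.11 ± 0.42, -0.11 ± 0.40 and -0.14 ± 0.38, and Col4a5 by -0.19 ± 0.25. Without normal diet library 1 the values of those 4 chains were 0.62, 0.75, 0.52 and 0.43, and without normal diet library 3 they were -0.11, -0.15, -0.35 and -0.39; Col3a1 was 0.26 without normal diet library 2. Of the other types, Col14a1 was 23.1, 22.3 and 26.2 CPM on the normal diet and 32.4, 20.04 and 29.5 CPM on high salt. Col15a1, a collagen of the zone beneath basement membranes, was 16.2, 8.02 and 9.78 CPM and 15.99, 9.07 and 15.6 CPM. Col18a1 was 45.3, 22.8 and 20.8 CPM and 33.1, 20.4 and 30.0 CPM. Normal diet library 1 was again the highest for Col15a1 and Col18a1.

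In liver 26 of the 35 listed collagens passed the filter. The other 9 (Col4a6, Col6a5, Col8a1, Col8a2, Col9a3, Col17a1, Col23a1, Col24a1 and Col28a1) had 0 to 34 counts per library, or at most 0.601 CPM. Over all 15130 liver genes 1.00% were called, 90 higher and 62 lower on high salt. None of the 26 collagens was called. At an unadjusted p under 0.05 there were 11 collagens higher and 0 lower on high salt, beside 9.83% of all genes higher and 11.3% lower. The 11 genes were measured in the same 8 libraries and are not independent of each other. In 9 of the 26 every high salt library lay above every normal diet library, beside 6.44% of all genes; the opposite was seen in 0, beside 6.05%.

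The median log2 difference, high salt minus normal diet, was 0.57 over the 26 collagens and -0.02 over all genes. By class it was 0.94 over the 8 fibrillar chains, of which 6 were positive, -0.02 over the 5 type IV chains, of which 2 were positive, and 0.46 over the 13 others, of which 12 were positive. 

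**Figure D4:**
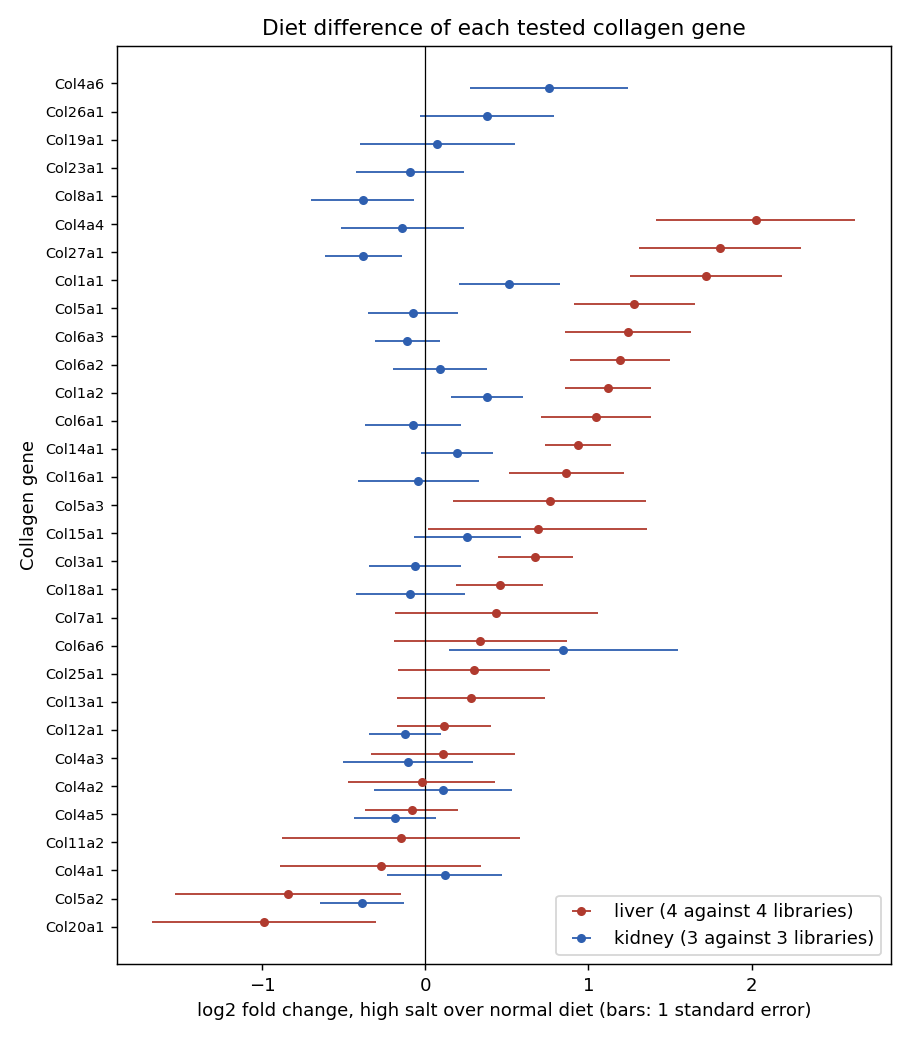
Log2 fold change of high salt over the normal diet (horizontal axis; bars are 1 standard error) for each collagen gene tested in liver (4 against 4 libraries) or kidney (3 against 3 libraries). In liver 20 of 26 genes lie above 0; in kidney 11 of 25 do, and no gene passed the adjusted threshold in either organ.

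The type I chains were separated by diet, Col1a1 on low counts. Col1a1 was 0.476, 0.572, 1.70 and 0.841 CPM in normal diet liver libraries 1 to 4 and 1.94, 2.40, 2.20 and 5.18 CPM in high salt libraries 5 to 8. The diets did not overlap, library 8 was the highest, and the counts were 20 to 54 and 106 to 293 per library. The log2 difference was 1.72 ± 0.47 (edgeR adjusted p = 0.102), or 1.22 without normal diet libraries 1 and 2. Col1a2 was 2.95, 3.02, 5.50 and 2.79 CPM and 7.03, 7.23, 6.47 and 10.2 CPM, again with no overlap, and differed by 1.12 ± 0.26 (edgeR adjusted p = 0.0761).

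Type III collagen, the other major fibre chain of liver, differed less. Col3a1 was 12.0, 13.5, 13.4 and 8.34 CPM on the normal diet and 14.4, 15.1, 20.5 and 25.5 CPM on high salt. The lowest high salt library stood just above the highest normal diet library, and the difference was 0.68 ± 0.23 (edgeR adjusted p = 0.158).

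The type V chains were less uniform. Col5a1 was 0.927, 0.845, 2.67 and 1.97 CPM and 3.82, 4.23, 2.97 and 4.54 CPM, a difference of 1.28 ± 0.37 (edgeR adjusted p = 0.118), or 0.75 without normal diet libraries 1 and 2. Col5a3 was 3.02, 3.30, 10.5 and 22.8 CPM and 11.8, 12.2, 16.7 and 26.4 CPM, so normal diet library 4 lay among the high salt libraries. The difference was 0.76 ± 0.59, and 0.01 without normal diet libraries 1 and 2, the lowest of the 8. Col5a2 was 8.75 CPM in normal diet library 1 and 0.817 to 2.90 CPM in the other 7 libraries. That library set its sign: the difference was -0.84 ± 0.69 with it and 0.29 without it.

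Col27a1 had the largest difference among liver fibrillar chains. It was 3.45, 4.44, 19.4 and 15.3 CPM on the normal diet and 32.3, 33.5, 40.0 and 43.1 CPM on high salt. Every high salt library was above every normal diet library, and normal diet libraries 1 and 2 were far below libraries 3 and 4. The difference was 1.81 ± 0.50 (edgeR adjusted p = 0.104), and 1.10 without libraries 1 and 2. 

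Type VI collagen forms beaded filaments that lie around cells. Col6a1 was 1.64, 1.66, 4.31 and 4.01 CPM and 5.82, 5.39, 5.70 and 7.05 CPM. Col6a2 was 0.856, 0.954, 1.76 and 1.63 CPM and 2.31, 3.01, 2.62 and 3.96 CPM. Neither pair of diets overlapped. Col6a3 overlapped by a narrow margin, at 1.52, 0.981, 3.46 and 1.49 CPM and 3.44, 3.69, 3.99 and 6.41 CPM. The log2 differences were 1.05 ± 0.34, 1.19 ± 0.31 and 1.24 ± 0.39, with edgeR adjusted p of 0.142, 0.0914 and 0.133, and were 0.53, 0.81 and 0.83 without normal diet libraries 1 and 2. Of the other type VI chains of the liver table, Col6a6 differed by 0.34 ± 0.53 with overlapping diets, and Col6a5, not tested, was at most 0.252 CPM.

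Among fibril-associated chains Col14a1 had the smallest p of all liver collagens. It was 13.7, 14.2, 22.1 and 14.03 CPM on the normal diet and 33.6, 32.5, 23.01 and 33.2 CPM on high salt. Normal diet library 3 and high salt library 7 came close to each other, and the others lay apart by diet. The difference was 0.94 ± 0.20 (edgeR unadjusted p = 0.000985, adjusted p = 0.0658). Col16a1, also fibril-associated, was 0.354 to 0.625 CPM and 0.639 to 1.41 CPM, a difference of 0.87 ± 0.35 (edgeR adjusted p = 0.202).

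Liver Col18a1 was 225, 213, 243 and 464 CPM on the normal diet and 379, 419, 324 and 449 CPM on high salt. Normal diet library 4 was the highest of all 8 libraries and the other 3 normal diet libraries were the lowest. The difference was 0.46 ± 0.27 (edgeR adjusted p = 0.345), and without library 4 it was 0.78 (edgeR adjusted p = 0.046). Without libraries 1 and 2 it was 0.16.

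The type IV chains of liver showed no common direction. Col4a1 was 3.80, 2.92, 9.31 and 28.4 CPM on the normal diet and 9.07, 10.4, 6.17 and 11.1 CPM on high salt, a difference of -0.27 ± 0.62. Normal diet libraries ranged from the lowest to the highest of the 8. Col4a2 was 2.78, 2.86, 7.33 and 12.4 CPM and 6.16, 5.95, 4.62 and 8.20 CPM, a difference of -0.02 ± 0.45. Without normal diet libraries 1 and 2 these values were -1.03 and -0.66 (edgeR adjusted p = 0.258 and 0.292). Normal diet library 4, the highest for both, had 66.8 CPM of summed leukocyte markers, against 8.28 to 17.2 CPM in the other 7 liver libraries. S100a9 (31.7 CPM) and S100a8 (18.2 CPM) made up most of that sum, and Cd68 was also highest in library 4 (6.9 CPM). Ptprc, Adgre1 and Cd3e were higher in normal diet library 3 than in library 4. The part of these markers in the type IV values was not tested. Col4a3 was 0.285, 0.30, 0.503 and 0.913 CPM and 0.355, 0.477, 0.811 and 0.53 CPM, and Col4a5 was 0.518 to 0.832 CPM and 0.512 to 0.769 CPM. Their differences were 0.11 ± 0.44 and -0.08 ± 0.29, with overlapping diets. Col4a4 had the largest difference of the tested liver collagens, 2.02 ± 0.61 (edgeR adjusted p = 0.130), but on 1, 2, 3 and 11 counts against 24, 11, 26 and 36, and its diets overlapped; it was 1.30 without normal diet libraries 1 and 2. High salt libraries 7 and 8, the highest for Col4a4, were also the highest for the summed kidney tubule markers, which were 0.547 to 1.73 CPM on the normal diet and 1.28, 1.64, 8.36 and 4.61 CPM in libraries 5 to 8; their part in the Col4a4 value was not tested.

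**Figure D5:**
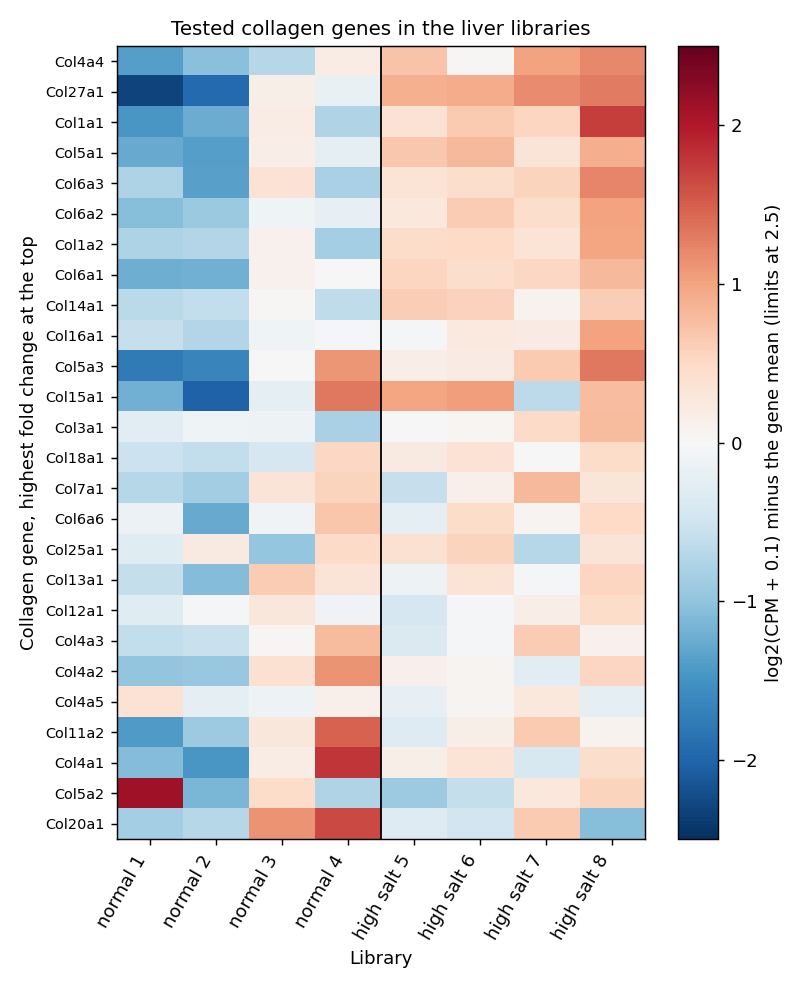
Each tested liver collagen (rows, highest fold change at the top) in each library (columns; normal diet left of the line), coloured by log2(CPM + 0.1) minus the mean of the gene. Either normal diet library 1 or normal diet library 2 is the lowest of the 8 in 20 of 26 rows. Normal diet library 4 is the highest in 8 rows: Col4a1, Col4a2, Col4a3, Col6a6, Col11a2, Col15a1, Col18a1 and Col20a1. The share of all liver genes lowest in libraries 1 and 2, or highest in library 4, was not computed.

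In 20 of the 26 genes the lowest library was normal diet library 1 or 2, and in 12 the highest was high salt library 8. The share of all liver genes with these extremes was not computed, so the counts describe the libraries and not a trait of collagens. Without libraries 1 and 2 together 9 collagens were higher and 3 lower at an unadjusted p under 0.05, beside 7.33% and 8.75% of all genes, and the median over the collagens tested was 0.14. Leaving out normal diet library 3 gave 7 collagens called (Col1a1, Col1a2, Col5a1, Col6a2, Col6a3, Col14a1 and Col27a1) and leaving out library 4 gave 2 (Col4a4 and Col18a1). DESeq2 on all 8 libraries called 9, with adjusted p of 0.00242 for Col14a1 to 0.0455 for Col4a4. A single edgeR fit of all 14 libraries called 5. DESeq2, the fit without library 3 and the fit of 14 libraries also called more of all genes, as counted below with the genes tested. The number of all genes called without library 4 lay within the range given there for single libraries left out. At an unadjusted p under 0.05, 13.4% of all genes were higher and 15.6% lower without library 3. The shares were 13.4% and 15.2% without library 4, 10.7% and 12.7% by DESeq2, and 10.7% and 8.61% in the fit of 14 libraries.

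Markers of hepatic stellate cells were higher in most of the high salt liver libraries. The summed level of the 6 hepatic stellate cell markers was 38.3, 47.2, 70.0 and 38.0 CPM in normal diet libraries 1 to 4 and 88.5, 88.2, 66.0 and 84.1 CPM in high salt libraries 5 to 8. Library 7 lay below normal diet library 3. All 6 markers had positive differences, with a median of 0.62, 4 of them at an unadjusted p under 0.05 (beside the 9.83% of all genes that were higher) and 0 called by edgeR. Endothelial markers were also positive in 7 of 7, with a median of 0.50 and 2 at an unadjusted p under 0.05, and summed to 27.7 to 74.6 CPM on the normal diet and 45.9 to 76.9 CPM on high salt. Of the 4 fibroblast and pericyte markers tested 3 were positive, with a median of 0.59 and 1 at an unadjusted p under 0.05. The sum of the 6 listed was 29.8 to 70.9 CPM and 39.5 to 52.7 CPM, of which the pericyte gene Rgs5 alone was 21.9 to 56.9 CPM and 23.1 to 37.4 CPM. The 5 smooth muscle and myofibroblast markers summed to 4.18 to 8.65 CPM and 5.41 to 6.63 CPM. Of the 3 tested 1 was positive and 2 were negative, with a median of -0.24 and 0 at an unadjusted p under 0.05. The part of all these cell markers in the collagen values was not tested.

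Whether the diet difference itself differed between the organs was tested in 1 fit of all 14 libraries. By edgeR 0 of 16633 genes passed the adjusted threshold (0% called), 1681 (10.1%) had an unadjusted p under 0.05, and DESeq2 called 145 genes. Of 30 collagens 9 had an unadjusted p under 0.05 with a more positive difference in liver, beside 5.85% of all genes, and 0 with a less positive one. The smallest p-values were those of Col27a1, 2.22 ± 0.61 on the log2 scale, Col8a1, 1.90 ± 0.58, and Col4a4, 2.17 ± 0.69, with edgeR adjusted p of 0.264, 0.296 and 0.318. The other 6 were Col6a3 at 1.37, Col5a1 at 1.38, Col6a2 at 1.12, Col6a1 at 1.15, Col14a1 at 0.76 and Col1a2 at 0.75. Without normal diet liver libraries 1 and 2 the count was 4.

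The proteins that make, crosslink, bind and break down collagen, or limit its breakdown, were read from 6 lists. In liver none of their genes was called by edgeR, and counts at an unadjusted p under 0.05 stand beside the 9.83% and 11.3% of all genes given above. Of 19 biosynthesis genes tested (prolyl and lysyl hydroxylases and chaperones) 3 were higher and 4 lower, with a median of 0.12. Of 11 processing and crosslinking genes 3 were higher and 0 lower, of 7 degradation genes 4 and 0, of 6 receptors 1 and 1, of 15 basement membrane partners such as laminins 5 and 0, and of 11 proteoglycans and glycoproteins of fibres 3 and 0. The medians of these 5 lists were 0.25, 0.86, 0.22, 0.62 and 0.38. The degradation list also holds Timp genes, whose proteins inhibit enzymes that cut collagen. Its higher genes were Mmp2, Mmp14, Mrc2 and the inhibitor gene Timp2 (0.91 ± 0.33), and Timp3 was at 0.86 ± 0.41.

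The list genes with the smallest p in liver pointed in opposite directions. Ppib, the endoplasmic reticulum enzyme cyclophilin B that helps procollagen fold, was 371, 374, 252 and 347 CPM on the normal diet and 169, 170, 230 and 189 CPM on high salt, a log2 difference of -0.83 ± 0.19 (edgeR adjusted p = 0.0702). Ogn, a small proteoglycan of collagen fibres, was 0.404, 0.436, 0.598 and 0.144 CPM and 1.05, 1.08, 1.39 and 1.22 CPM, a difference of 1.59 ± 0.38 (edgeR adjusted p = 0.0788). The diets did not overlap for either gene.

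In kidney the same 6 lists, with 19, 13, 7, 6, 15 and 12 genes tested, held 2 genes at an unadjusted p under 0.05, near the 2.01% of all genes, and 0 called by edgeR. Those 2 are given as values only. Lox, the enzyme that crosslinks collagen and elastin, was 2.05, 2.40 and 2.76 CPM on the normal diet and 3.57, 5.42 and 4.64 CPM on high salt, without overlap, a log2 difference of 0.91 ± 0.27 (edgeR unadjusted p = 0.0102, adjusted p = 0.9996). Lamc3, a laminin chain, was 3.75, 2.23 and 2.37 CPM and 4.64, 3.84 and 4.96 CPM, a difference of 0.69 ± 0.29.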

How the data were processed

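RNA of liver and kidney was sequenced from SMARTer mRNA libraries, per the labels. The values used are the expected counts that the authors deposited for each gene, made with Partek's expectation-maximisation quantification per the file names. The authors also deposited a normalized signal per gene, whose method is not given in the sources used here; in kidney it covers another gene set than the counts. STAR 2.5.3a, Partek 7.0, DESeq2 and the mm10 build are named in the submitters' processing notes, with no role given; annotation release and filters are not given in the sources used here. Columns were matched to samples by title, and 0 per-sample columns were left unused. The 4 high salt liver columns name the diet but not the titled sample. All 39 starts and ends equal GENCODE M21.

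Expected counts were rounded and tested with edgeR 4.0.16 (TMM, filterByExpr, quasi-likelihood) in R 4.3.3, each tissue apart for diet and 1 fit of 14 libraries for tissue and interaction, with no replicate block. CPM uses TMM library sizes within a tissue. Adjusted p-values under 0.05 over all genes tested were called. The scripts were tested on simulated data. The common coefficient of biological variation came to 0.314 for liver libraries and 0.30 for kidney libraries. Dixon's gap was used to find single libraries far from their group.

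Genes described by library were Col1a1, Col1a2, Col3a1 and Col4a1 to Col4a6, the 3 highest of each class per tissue, the 5 smallest p per diet comparison, the 3 smallest interaction p, and the 5 highest and 5 lowest tissue differences called on both diets; all liver collagens with an unadjusted p under 0.05, Col5a2 and the rest of those called on both diets were added after their values were seen. The liver genes most like Col4a1 are not reported here. The members and lists were chosen with earlier results of these data known. Alternatives were RLE scaling, DESeq2 1.42.0, limma 3.58.1 on the deposited signal (pseudocounts 1 and 0.1), no low-count filter, a minimum of 10 counts per library, mitochondrial genes removed, a replicate block, longest transcript lengths, high salt liver libraries 5 and 6 summed, and libraries left out.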

Additional observations from a re-analysis of the deposited data

Results flagged for a closer look

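In 53 liver groups of 4 libraries (collagen and diet) with a mean of at least 10 counts, 5 had 1 library far from the other 3 by Dixon's gap, where chance, which picks about 1 in 20 groups, would give about 2.65. Col1a1 was 5.17 CPM in high salt library 8 and 1.94 to 2.40 CPM in the other 3. Col1a2 was 5.50 CPM in normal diet library 3 and 2.79 to 3.02 CPM in the others. Col14a1 was 22.1 CPM in normal diet library 3 and 13.7 to 14.2 CPM in the others, and 23 CPM in high salt library 7 against 32.5 to 33.6 CPM. Col18a1 was 464 CPM in normal diet library 4 and 213 to 243 CPM in the others.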

How the results depend on the processing

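For high salt against normal diet in liver, 152 genes were called, 1122 by DESeq2, 260 in the fit of 14 libraries, 52 without normal diet libraries 1 and 2, 12 with high salt libraries 5 and 6 summed, and 12 (without high salt library 6) to 765 (without normal diet library 3) when single libraries were left out. Genes tested numbered 15130 in the main fit and by DESeq2, and 16633 in the fit of 14 libraries. They numbered 15471 without normal diet library 3 and 15270 without normal diet library 4. Collagens called numbered 0, 9 by DESeq2, 5 in the fit of 14 libraries and 0 to 7 without single libraries. The number of all genes with unadjusted p under 0.05 and a higher value, high salt against normal diet in liver, ran from 988 to 2067 without single libraries. In kidney DESeq2 called 11 genes. For the interaction, DESeq2 called 145 genes, the filter of 10 counts gave 2, and the fit without normal diet liver libraries 1 and 2 gave 1, with 4 collagens at an unadjusted p under 0.05; leaving out single libraries gave 0 to 7. On high salt 11 collagens were called between tissues under the filter of 10 counts, which tests fewer genes.

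Signs turned mostly for genes near 0. They also turned for Col5a2 in liver (-0.84) and for Col27a1 between tissues on the normal diet (0.41). In liver limma gave 0.27 and 0.28 for Col4a1 and 0.22 and 0.23 for Col4a2 (pseudocounts 1 and 0.1), the fit of 14 libraries gave 0.0155 for Col4a2, and the fit without normal diet libraries 1 and 2 gave -0.40 for Col4a3. Without single libraries Col4a1 ran from -0.59 to 0.78, Col4a2 from -0.28 to 0.52, Col4a3 from -0.15 to 0.58, Col4a5 from -0.22 to 0.0487 and Col5a2 from -1.17 to 0.29. In kidney Col3a1 ran from -0.31 to 0.26, Col4a1 from -0.11 to 0.62, Col4a2 from -0.15 to 0.75, Col4a3 from -0.35 to 0.52 and Col4a4 from -0.39 to 0.43, with the ends set by leaving out normal diet library 1 and library 2 (Col3a1) or 3 (the others); limma gave 0.0172 for Col4a3 with both pseudocounts. The Col27a1 log2 fold change, liver against kidney on the normal diet, ran from -0.0409 to 0.69 without single libraries and was 1.09 without normal diet liver libraries 1 and 2. The cause was not tested. Every other fold change recomputed for a named gene kept its sign under each alternative run.

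Whether equal replicate numbers mark paired samples could not be decided, because deviations from small group means were correlated and these values constrain each other. Over 9874 genes same-numbered kidney libraries correlated at 0.617, 0.631 and -0.179, and differently numbered ones at -0.681 to 0.624. Same-numbered normal diet liver and kidney libraries correlated at -0.355, 0.367 and -0.302, and differently numbered ones at -0.424 to 0.39. With the replicate block 0 kidney genes were called, the Col3a1 log2 fold change, high salt against normal diet in kidney, was 0.00782 and Col4a3 0.0349 in kidney, and Col27a1 was -0.24 between tissues; for liver against kidney on the normal diet 7738 genes and 15 collagens were called, from 3 libraries per tissue. A count of 0 is known only to lie under 3 counts, or 0.053 to 0.189 CPM.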

Other observations

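Over the 12184 liver genes with a mean of at least 50 counts, the genes whose order over the 8 libraries was that of Col1a1 (Spearman rho of 1) were Mfsd7a, Atrx and Col6a2. In kidney, with 6 libraries, 26 genes had the order of Col1a1 and 403 that of Col4a1, so none is singled out there. These are descriptions over libraries that share their diet groups.

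The GC content of the longest transcript ran from 45.9% in Col25a1 and 46.8% in Col8a1 to 62.9% in Col11a2. Over the 16 liver collagens with a mean above 1 CPM, the Spearman rho between GC content and the deviation of a library from the gene mean was -0.676 and -0.471 in normal diet libraries 1 and 2, -0.194 and 0.482 in libraries 3 and 4, and 0.135 to 0.271 in the high salt libraries. Over all 12169 liver genes it was -0.063 and -0.182, -0.271 and 0.318, and -0.262 to 0.306. The points share the same libraries, and the part of GC content in the diet values was not tested.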
